A study of Rattus norvegicus and Ovis aries with 113 samples.

Results

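The monoamine genes described here are the 10 genes TH, DDC, DBH, TPH2, SLC6A2, SLC6A3, SLC6A4, SLC18A2, MAOA and MAOB, chosen by name and matched by upper-cased symbol in 8 tables of gene counts, 5 for sheep and 3 for rat. All 10 were found once among the 31304 genes of the sheep tables and once among the 38675 genes of the rat tables. The sheep (Ovis aries) were 5 post-pubertal males, numbered 687, 688, 690, 694 and 699, each sampled in the pons, basal ganglia, hippocampus, cerebellum and the entorhinal, prefrontal, frontal, motor, posterior parietal and visual cortex, all from 1 hemisphere, and in sperm. The rats (Rattus norvegicus, Sprague Dawley) were 15 post-pubertal males with brain and sperm, the latter taken from seminal fluid, and 14 females with brain and ovary, the brains having been harvested whole. No group carried a treatment or an allele. The 113 libraries were sequenced as 150 bp pairs, and a level below is in counts per 1000000 (CPM), a gene's share of the counts of its library, which does not correct for gene length and is therefore compared within a gene only.

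Monoamine transmitters are made by small groups of neurons whose cell bodies sit mainly in the brainstem and midbrain and whose fibres reach most of the brain. Tyrosine hydroxylase (TH) is the rate-limiting enzyme of catecholamine synthesis, aromatic L-amino acid decarboxylase (DDC) makes dopamine and serotonin from their precursors, dopamine beta-hydroxylase (DBH) turns dopamine into noradrenaline, and tryptophan hydroxylase 2 (TPH2) is the rate-limiting enzyme of serotonin synthesis in neurons. The plasma membrane transporters SLC6A2, SLC6A3 and SLC6A4 take back noradrenaline, dopamine and serotonin, SLC18A2 (VMAT2) loads all of them into vesicles, and the monoamine oxidases MAOA and MAOB break them down on the outer mitochondrial membrane. The pons holds the noradrenergic locus coeruleus and part of the serotonergic raphe nuclei. The basal ganglia are a main target of dopamine fibres, whose cell bodies lie in the midbrain.

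The sheep gene positions are not used here. On the rat build GRCr8 (RefSeq), Th lies at chr1:207500959-207508276, Slc18a2 at chr1:268399815-268435229, Slc6a3 at chr1:31537990-31578962, Dbh at chr3:30886313-30903313, Tph2 at chr7:52571909-52676305, Slc6a4 at chr10:62322688-62357060, Ddc at chr14:90592304-90682830 and Slc6a2 at chr19:30183289-30228292. Maob (chrX:8490405-8594065) and Maoa (chrX:8615239-8681372) are neighbours on the X chromosome. In that annotation Ddc overlaps Fignl1 and a long non-coding RNA, Tph2 overlaps a pseudogene, and Slc6a3 and Slc6a4 each overlap a long non-coding RNA. Whether the counting used strand is not given in the sources used here, so reads of overlapping genes may be shared.

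The promoters of 8 of the 10 rat genes were in the RefSeq table for GRCr8, as 250 bases before and 50 bases from the transcription start. They were searched for 3 letter patterns, and 4 promoters that hold one are shown because their genes all rose in the sheep pons, 5′ to 3′ on the gene's strand, for Th (chr1:207508169-207508468, minus strand), Slc18a2 (chr1:268399771-268400070, plus strand), Dbh (chr3:30886078-30886377, plus strand) and Tph2 (chr7:52675590-52675889, minus strand). Capitals mark TGACGTCA, the cAMP response element, CAATTA, the core of many homeodomain protein sites, and AGATAA, the motif of the GATA factor family, each searched on both strands with no overlap between them.
Th: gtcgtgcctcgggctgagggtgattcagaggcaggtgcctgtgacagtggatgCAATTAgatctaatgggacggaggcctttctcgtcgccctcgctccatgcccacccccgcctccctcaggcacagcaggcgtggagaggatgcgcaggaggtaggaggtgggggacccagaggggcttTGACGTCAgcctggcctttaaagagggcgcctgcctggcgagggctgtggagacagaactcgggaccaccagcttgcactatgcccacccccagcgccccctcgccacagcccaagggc
Slc18a2: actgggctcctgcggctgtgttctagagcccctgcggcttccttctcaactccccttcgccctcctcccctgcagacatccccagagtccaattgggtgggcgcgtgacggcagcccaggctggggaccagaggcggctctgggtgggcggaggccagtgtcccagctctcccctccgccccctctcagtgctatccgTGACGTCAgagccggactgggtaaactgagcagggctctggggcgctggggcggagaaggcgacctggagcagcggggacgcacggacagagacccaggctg
Dbh: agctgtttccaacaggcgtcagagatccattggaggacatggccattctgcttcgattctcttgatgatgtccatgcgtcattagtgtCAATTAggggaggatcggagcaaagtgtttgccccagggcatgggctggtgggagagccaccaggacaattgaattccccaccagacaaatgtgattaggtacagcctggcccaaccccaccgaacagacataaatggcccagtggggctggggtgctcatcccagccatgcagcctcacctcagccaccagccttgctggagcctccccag
Tph2: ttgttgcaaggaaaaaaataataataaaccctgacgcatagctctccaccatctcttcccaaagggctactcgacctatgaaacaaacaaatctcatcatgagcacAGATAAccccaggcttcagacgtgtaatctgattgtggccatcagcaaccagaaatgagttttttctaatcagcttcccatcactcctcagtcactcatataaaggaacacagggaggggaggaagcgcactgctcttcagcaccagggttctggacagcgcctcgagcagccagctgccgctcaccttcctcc
TGACGTCA began 69 bases before the start of Th and 52 bases before that of Slc18a2, and 1.829% of the 33469 rat promoters in the table held it. CAATTA began 197 bases before the start of Th and 162 bases before that of Dbh, against 8.199% of all promoters. AGATAA began 144 bases before the start of Tph2, and 1 of the 3 listed Ddc promoters held it too, against 11.58% of all promoters. The starts used were 207508218 for Th, 268400021 for Slc18a2, 30886328 for Dbh and 52675639 for Tph2. They lie inside the gene spans given above, so the distances hold for these starts and not for the ends of those spans. These matches describe the letters of rat promoters and were not tested against binding in these tissues.

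Library totals ran from 46.7 to 72.4 M counts in sheep brain, 13.7 to 65.1 M in sheep sperm, 38.2 to 119 M in rat brain, 50.5 to 60.3 M in ovary and 13.7 to 65.1 M in rat sperm. Region labels were checked by correlating each sheep brain library's departure from the mean of all with that of its region's other libraries over 15744 genes: the pons (r = 0.732 to 0.901), basal ganglia (0.700 to 0.859) and cerebellum (0.943 to 0.948) matched in 5 of 5 libraries each. The hippocampus matched in 3 of 5, the posterior parietal cortex in 2 of 5 and the other cortical regions in 0 of 5, their libraries lying closest to another region. The entorhinal cortex library of sheep 688 (r = -0.44) and the motor cortex library of sheep 687 (r = -0.151) went against their labels and resembled other regions, so results that touch them are also given without them. Striatal medium spiny neuron markers (6 of 6 genes detected) summed to 1740 to 3888 CPM in the libraries labelled basal ganglia and to at most 416 CPM elsewhere. Hindbrain HOX genes summed to 1.64 to 58.5 CPM in the pons against 0.24 to 1.73 CPM in the other regions, the pons of sheep 694 being lowest. In the rat brains 1 (female) and 4 (male), 86.9% and 83.1% of all counts fell in 3 ribosomal-like entries, against 2.39% to 54.0% in the other brains, which lowers every other gene's CPM there.

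In the sheep brain the synthesis and transport genes were highest in the pons, where 9 of the 10 rose against the other 9 regions. TH averaged 8.25 ± 9.27 CPM in the pons (SD, n = 5 here and below) and 0.281 CPM over the other 45 libraries, a ratio of 29.4, and the noradrenaline transporter gene SLC6A2 averaged 6.76 ± 8.84 CPM against 0.142 CPM, a ratio of 47.4. DDC, at 9.93 ± 5.32 CPM, was the only one whose lowest pons library lay above every library of the region ranked next. MAOA and MAOB, which glia and many neurons express, differed less, at 134 ± 40.2 and 52.9 ± 19.7 CPM against 72.5 and 34.2 CPM. Among all 21147 genes tested, 18.7% were called in either direction and 9.66% were called higher in the pons; the members' median log2 fold change was 2.92 and that of all genes 0.03. A call means an adjusted p below 0.05 over all genes with a log2 fold change of at least 1 in edgeR's quasi-likelihood test. Fold changes against several regions compare with the mean of their log levels, so a region with almost no counts weighs as much as any other. In bulk samples such as these, fewer cells of a type and less RNA per cell cannot be told apart.

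**Figure D1:**
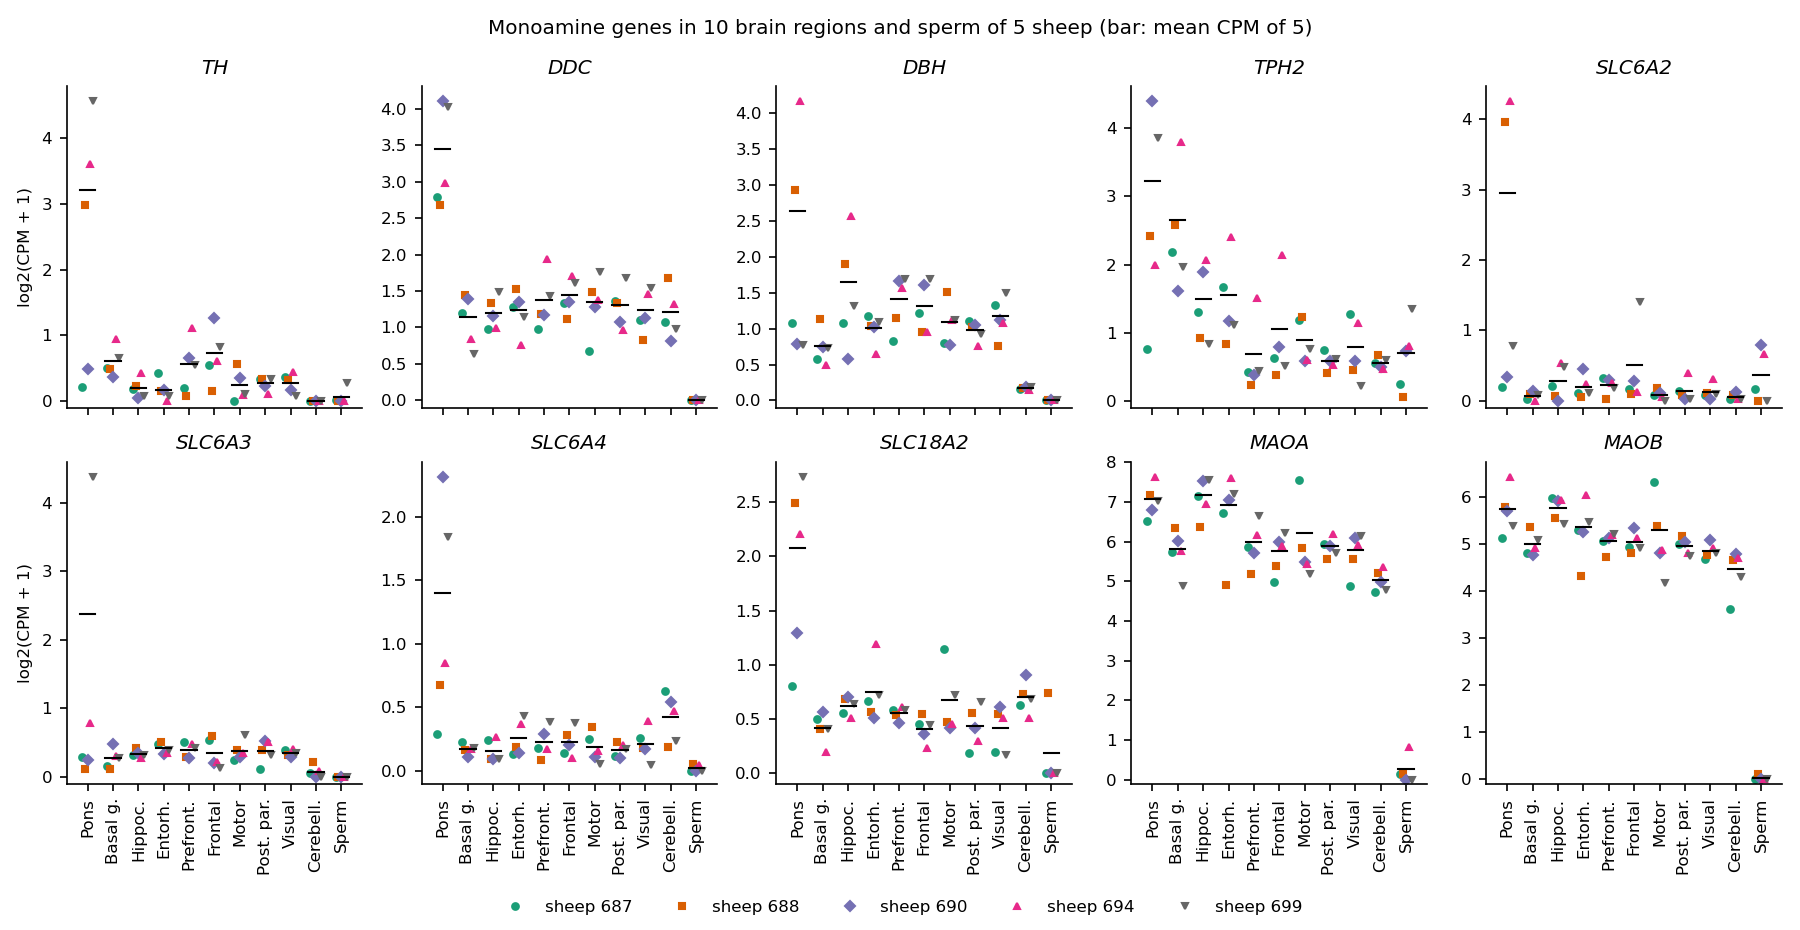
Levels of the 10 monoamine genes in the 10 sheep brain regions and in sheep sperm; each point is 1 animal, the vertical axis is log2(CPM + 1) and each bar is the mean CPM of 5 libraries on that scale. The pons stands highest for TH, DDC, DBH, TPH2, the 3 plasma membrane transporters and SLC18A2, with wide spread between animals, while MAOA and MAOB are found in all brain regions and are near 0 in sperm.

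The 5 pons libraries differed strongly among themselves. TH was 0.161 CPM in sheep 687, 6.93 in 688, 0.397 in 690, 11.1 in 694 and 22.6 in 699. It was thus high in 3 animals and in the other 2 lay within the range of the other regions, whose highest library was at 1.40 CPM. Its fitted log2 fold change was 5.66 ± 0.45 (approximate SE, edgeR adjusted p = 3.23e-13). The pons lay above the mean of the animal's own other regions in 4 of 5 sheep. Here and below, the SE comes from a fit that shares its estimate of spread over all regions. It does not show the spread among the 5 pons libraries.

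DBH, the last step to noradrenaline, was 1.10, 6.59, 0.724, 17.0 and 0.711 CPM in the same order of animals, and SLC6A2 was 0.141, 14.5, 0.259, 18.2 and 0.711 CPM. Both were highest in sheep 688 and 694 and low in the other 3 animals. The log2 fold changes were 2.36 ± 0.32 for DBH (edgeR adjusted p = 4.62e-08; 3 of 5 sheep above their other regions) and 5.87 ± 0.47 for SLC6A2 (edgeR adjusted p = 1.35e-13; 5 of 5 sheep). Without sheep 694 the DBH value was 1.35 and still called. PHOX2A, a transcription factor of noradrenergic neurons, was 1.00 and 2.41 CPM in sheep 688 and 694 and at most 0.17 CPM in the pons of the others.

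SLC6A3, the dopamine transporter gene, was 0.221, 0.0852, 0.190, 0.727 and 19.8 CPM. Only sheep 699 was high, the library that also had the most TH, with DBH and SLC6A2 at 0.711 CPM each. The call (log2 fold change 4.15 ± 0.42, edgeR adjusted p = 5.31e-11) rested on that library: without sheep 699 the value was 0.28 (adjusted p = 0.626), and limma voom with quality weights gave 0.52 (adjusted p = 0.395). PITX3, a factor of midbrain dopamine neurons, was also highest in the pons of sheep 699, at 1.39 CPM against 0.04 to 0.43 CPM in the other 4. Among the other transcription factors listed, NR4A2 and FOXA2 were also highest there (30.6 and 0.237 CPM). LMX1A, EN1 and EN2 were highest in sheep 694, at 1.29, 22.0 and 28.4 CPM against 0.237, 6.51 and 3.57 CPM in sheep 699. PITX3 averaged 1.35 CPM in the basal ganglia too, where SLC6A3 averaged 0.207 CPM. Whether the pons pieces took in different nuclei was not tested.

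TPH2 was 0.703, 4.38, 20.2, 3.00 and 13.5 CPM, and SLC6A4, which takes up serotonin, was 0.221, 0.596, 3.98, 0.802 and 2.59 CPM. Sheep 690 and 699 were highest for both genes and sheep 687 lowest. TPH2 rose by 3.01 ± 0.37 on the log2 scale (edgeR adjusted p = 6.72e-09; 3 of 5 sheep) and SLC6A4 by 3.37 ± 0.30 (edgeR adjusted p = 1.86e-12; 5 of 5 sheep). FEV, a transcription factor of serotonergic neurons, was 0, 0.22, 1.07, 0.24 and 0.44 CPM, with sheep 690 and 699 again the highest.

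DDC was 5.92, 5.43, 16.2, 6.86 and 15.2 CPM, and the vesicular transporter gene SLC18A2 was 0.743, 4.65, 1.45, 3.62 and 5.67 CPM. Both serve every monoamine, and DDC was at least 5.43 CPM even in sheep 687, where TH, TPH2 and the 3 plasma membrane transporters were all at 0.703 CPM or below. DDC rose by 2.82 ± 0.21 (edgeR adjusted p = 1.92e-14) and SLC18A2 by 2.83 ± 0.24 (edgeR adjusted p = 3.97e-13), each in 5 of 5 sheep.

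MAOA was 90.8, 145, 111, 197 and 129 CPM and MAOB 33.9, 54.2, 51, 85 and 40.4 CPM, so both were highest in sheep 694. MAOA rose by 1.04 ± 0.22 (edgeR adjusted p = 1.60e-04; 5 of 5 sheep), close to the fold limit: it was 0.91 without sheep 688, 0.97 without sheep 694 and 1.08 without the 2 libraries that went against their labels. MAOB was 0.67 ± 0.16 higher (edgeR adjusted p = 4.92e-04), below the fold limit. The oligodendrocyte markers (5 of 5 genes) summed to 20942 to 91851 CPM in the pons and 1336 to 28290 CPM elsewhere, and neuron markers to 404 to 2029 CPM against 1225 to 4792 CPM, the pons of sheep 699 being highest for the first and lowest for the second; their part in the differences was not tested.

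**Figure D2:**
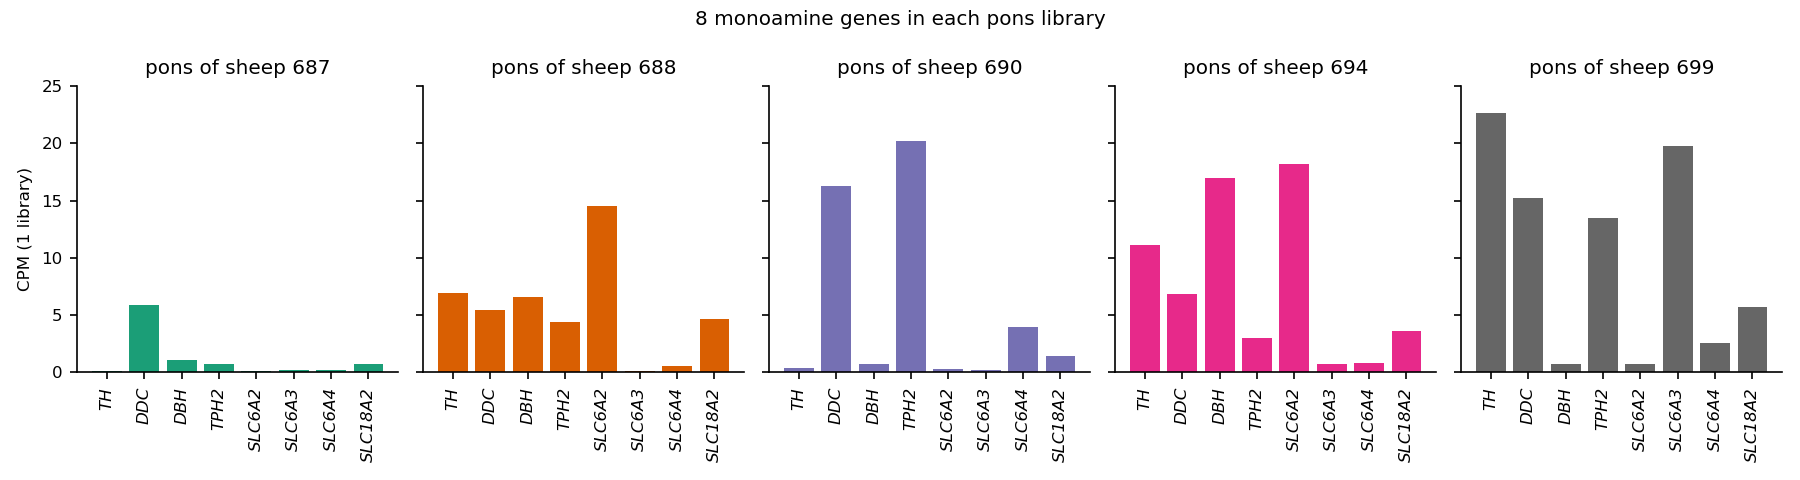
Level of 8 synthesis and transport genes in each of the 5 sheep pons libraries, as bars of CPM starting at 0. TH, DBH and SLC6A2 are high in sheep 688 and 694, TH and SLC6A3 in sheep 699, and TPH2 and SLC6A4 in sheep 690 and 699, while sheep 687 has the lowest TH, TPH2, SLC6A2, SLC6A4 and SLC18A2.

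**Figure D3:**
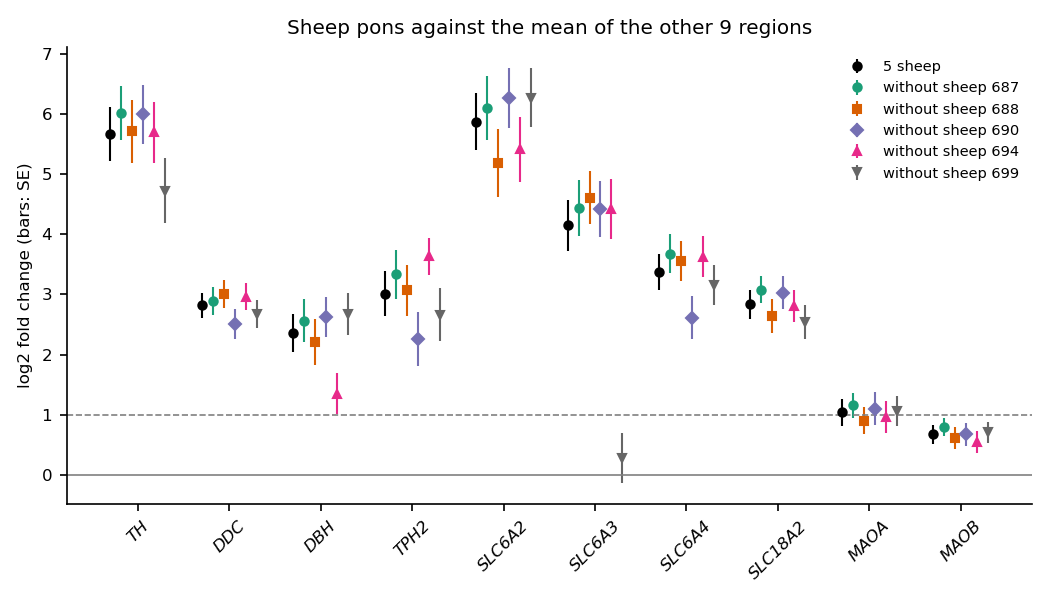
Log2 fold change of each gene in the pons against the mean of the other 9 regions, from all 5 sheep and with each animal left out. Bars are the approximate standard error of the fit, and the dashed line marks the fold limit of 1. SLC6A3 falls from 4.15 to 0.28 without sheep 699, DBH to 1.35 without sheep 694, and MAOA stays near the line.

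In the basal ganglia the serotonin enzyme gene TPH2 was the member that differed most. It was 3.56, 5.01, 2.05, 13.0 and 2.92 CPM in sheep 687, 688, 690, 694 and 699, a mean of 5.30 ± 4.42 CPM, second to the pons. Its log2 fold change against the other 9 regions was 2.46 ± 0.39 (edgeR adjusted p = 2.35e-06; 4 of 5 sheep above their own other regions), and 2.13 without sheep 694. The uptake gene of the same transmitter, SLC6A4, stood at 0.0787 to 0.169 CPM there, -0.52 ± 0.45 on the log2 scale (edgeR adjusted p = 0.432).

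TH was also called in the basal ganglia, at 0.413, 0.408, 0.295, 0.918 and 0.568 CPM; its log2 fold change was 1.52 ± 0.58 (edgeR adjusted p = 0.0464). The call was marginal: with the animal as a block it was 1.48 (adjusted p = 0.0662), with DESeq2 1.5 (adjusted p = 0.0632) and with limma voom 1.62 (adjusted p = 0.107). It was also lost without sheep 688, 690, 694 or 699 in turn (adjusted p = 0.0699, 0.0541, 0.166 and 0.127). On the CPM scale TH in the basal ganglia exceeded the mean of the animal's own other regions in 1 of 5 sheep. Without the pons, the other 8 regions averaged 0.251 CPM against 0.520 CPM in the basal ganglia, which lay above them in 4 of 5 sheep. These were 2 members called, both higher, where 10.3% of all genes were called and 5.54% called higher. The other 8 were not called, with log2 fold changes from -1.70 (SLC6A2) to 0.07 (MAOB).

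Set directly against the basal ganglia, the pons was higher for 8 of the 10 genes, where 19.9% of all genes were called and 9.78% called higher. The log2 fold changes were 6.82 ± 1.17 for SLC6A2 (edgeR adjusted p = 7.89e-06), 4.11 ± 0.86 for SLC6A3, 3.73 ± 0.88 for TH (adjusted p = 7.08e-04), 3.50 ± 0.58 for SLC6A4, 3.04 ± 0.44 for SLC18A2, 2.87 ± 0.39 for DDC (adjusted p = 8.34e-08), 2.63 ± 0.56 for DBH and 1.08 ± 0.34 for MAOA (adjusted p = 0.00882). TPH2 differed by 0.50 ± 0.64 (edgeR adjusted p = 0.565) and was above the animal's own basal ganglia in 2 of 5 sheep. MAOB was 0.55 ± 0.23 higher (edgeR adjusted p = 0.0519). Limma voom called 5 of the 8, losing TH (1.89, adjusted p = 0.0734), SLC6A3 (0.61) and MAOA (0.98). Without sheep 699 SLC6A3 was 0.33 and MAOA 0.96, and without sheep 694 DBH was 1.49 and MAOA 0.95.

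The cerebellum had the lowest levels of most members. No TH read was counted in any of its 5 libraries. In CPM from plain totals this is at least 114-fold below the mean of the other 9 regions, with a floor of 3 counts over the group. The fitted log2 fold change (-7.50, edgeR adjusted p = 3.70e-05) depends on the prior count. DBH stood at 0.11 to 0.143 CPM in the 5 cerebella, below every library of the basal ganglia, the region ranked next, and its log2 fold change was -3.69 ± 0.56 (edgeR adjusted p = 2.73e-07). In all, 7 of the 10 members fell, where 28.8% of all genes were called and 19.5% called lower, and the members' median log2 fold change was -1.66 against -0.04 for all genes.

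The others that fell in the cerebellum were SLC6A3 (-3.11 ± 0.83, edgeR adjusted p = 0.00135), SLC6A2 (-2.47 ± 0.99, adjusted p = 0.0284), TPH2 (-1.83 ± 0.58, adjusted p = 0.00617), MAOA (-1.49 ± 0.28, adjusted p = 1.66e-05) and MAOB (-1.01 ± 0.19, adjusted p = 1.08e-05). Each of the 7 lay below the mean of the animal's own other regions in 5 of 5 sheep. The SLC6A2 call was lost with limma voom (-1.81, adjusted p = 0.166) and without sheep 687, 688, 694 or 699, and MAOB was -0.83 without sheep 687 and -0.99 without the 2 libraries that went against their labels. DDC was -0.68 ± 0.29, SLC6A4 0.62 ± 0.38 and SLC18A2 -0.01 ± 0.33; none was called. SLC6A4 ranked second to the pons there, at 0.341 ± 0.175 CPM, with ranges that overlap those of the next region.

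No member was called by edgeR in the hippocampus or any of the 6 cortical regions. In the hippocampus, 4.62% of all genes were called. By a looser measure, an unadjusted edgeR p below 0.05 at any fold change, 5 members passed. The share of all genes at that measure is not given here, so this count has no background. MAOA was 142, 81.5, 183, 123 and 188 CPM there, the highest mean of any region (144 ± 44.3 CPM), with ranges that overlap those of the pons and entorhinal cortex. Its difference of 0.99 ± 0.23 (log2; edgeR adjusted p = 0.00264; 5 of 5 sheep) lay just under the fold limit, and reached 1.03 without the 2 libraries that went against their labels. MAOB in the hippocampus, at 53.8 ± 9.27 CPM, was 0.57 ± 0.16 higher (edgeR adjusted p = 0.0168). With no fold limit these 2 members passed, where 11.0% of all genes did.

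In the entorhinal cortex, where 2.24% of all genes were called, MAOA was 104, 29.1, 131, 195 and 146 CPM, lowest in the doubtful library of sheep 688, and in the motor cortex, where 1.64% were called, it was 187, 56.5, 43.5, 42.1 and 35.4 CPM, highest in the doubtful library of sheep 687. Without these libraries the entorhinal MAOA value was called (1.04, edgeR adjusted p = 6.64e-05), against 0.73 (adjusted p = 0.0725) with them. The percentages of all genes called were 2.77% in frontal, 2.46% in prefrontal, 2.66% in posterior parietal and 2.12% in visual cortex. An unadjusted p below 0.05 was found for 3 members in frontal, 2 in prefrontal and 1 each in entorhinal, posterior parietal and visual cortex, and for 0 in motor cortex. The percentages above are of calls, a stricter measure, and are no background for these counts. TPH2 in the prefrontal cortex was called lower without sheep 694 (-1.94, adjusted p = 0.0274), and DESeq2 called TPH2 lower in the posterior parietal cortex (-1.40, adjusted p = 0.035). TH had its second highest mean in the frontal cortex, at 0.655 ± 0.475 CPM, and DBH in the hippocampus, at 2.15 ± 1.76 CPM; the ranges overlap those of the regions ranked next.

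Other genes of the pathway are the enzymes that make and recycle the tetrahydrobiopterin cofactor or modify the amines, other amine transporters, the receptors, and the transcription factors of monoaminergic neurons. The share of all genes to set beside the pons counts is 18.7% called in either direction and 9.66% called higher. In the pons, 6 of 9 transcription factors tested rose and 0 fell, with a median of 2.47: EN2 (6.22 ± 0.62), EN1 (5.24 ± 0.46), LMX1B (4.26 ± 0.37) and GATA3 (2.47 ± 0.34) rose most among those at 1 CPM or more. EN2 and EN1 were highest in the pons of sheep 694 (28.4 and 22.0 CPM) and at most 3.57 and 6.51 CPM in the others, and EN2 averaged less in the pons, 6.88 CPM, than over the other 9 regions, 17.9 CPM, of which the cerebellum stood at 160 CPM. Of the 14 cofactor and accessory enzymes 0 rose and 1 fell in the pons, with a median of 0.02, and of 6 other transporters none was called. Of the receptors, 2 of 5 dopamine receptors rose there (DRD2 1.99 and DRD5 1.31) and DRD1 fell (-2.25), 3 of 9 adrenergic receptors fell (ADRA2C -2.43, ADRB1 -1.98, ADRA2B -1.43) and 4 of 13 serotonin receptors fell (HTR3A -4.38, HTR4 -1.36, HTR5A -1.19, HTR1E -1.12), with 0 rising in the last 2 lists. DRD2 also averaged less in the pons (10.0 CPM) than over the other regions (14.8 CPM), which include the basal ganglia.

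The basal ganglia, where 8 of the 10 members were not called, differed strongly in receptors. Of all genes 10.3% were called there and 5.54% called higher. DRD3 (6.98 ± 0.18), DRD2 (6.26 ± 0.16) and DRD1 (4.65 ± 0.24) rose and DRD5 fell (-1.75 ± 0.52) among 5 dopamine receptors. Among 13 serotonin receptors tested 6 rose, led by HTR1D (4.98 ± 0.29), HTR2A (3.88 ± 0.38) and HTR1B (3.17 ± 0.39), and 4 fell, HTR3A most (-2.64 ± 0.44). Of 9 adrenergic receptors 3 rose (ADRA2C 3.34, ADRA2B 3.19, ADRB1 1.78) and 2 fell, and of 9 transcription factors PITX3 rose (2.03 ± 0.42) and 2 fell, with NR4A2 at -1.46. Of the cofactor enzymes 0 of 14 rose and 1 fell. For the cerebellum, 28.8% of all genes were called and 19.5% called lower. In the cerebellum 4 of 14 cofactor enzymes fell, among them GCHFR (-2.53), GCH1 (-1.38), the rate-limiting enzyme of cofactor synthesis, and HNMT (-1.36), and 1 rose. There 4 of 9 transcription factors rose (EN2 11.22, EN1 6.21 and LMX1A 4.22 among them) and 2 fell, and 7 of 13 serotonin receptors fell with 0 rising.

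Over the 50 sheep brain libraries, genes whose levels followed each member closely were ranked by Pearson's r of log2(CPM + 1) among 13831 genes, as a description of libraries that share regions and animals. TH was followed by LMX1B (r = 0.795), SLC18A2 (0.783) and IRX4 (0.739), DDC by NKX6-1 (0.865) and LGALS1 (0.842), and DBH by SLC6A2 (0.762), IRX4 (0.666) and DHRS7 (0.660). SLC6A2 was followed by IRX4 (0.915), LMX1B (0.8) and DBH (0.762), SLC6A3 by TH (0.678), CD8A (0.666) and SLC16A3 (0.650), SLC6A4 by NKX6-1 (0.834) and CIMIP4 (0.791), and SLC18A2 by HKDC1 (0.838), ARHGEF37 (0.811) and LMX1B (0.811). Several of these rested on the pons. Over the 45 other libraries r was -0.028 for TH with LMX1B, -0.447 for TH with SLC18A2 and -0.262 for TH with IRX4. It was -0.228 for SLC6A2 with IRX4, -0.421 for DBH with IRX4 and 0.030 for SLC6A3 with TH. For DBH with SLC6A2 it was 0.431, for SLC6A2 with LMX1B 0.606 and for DBH with DHRS7 0.686. TPH2 was followed by EML1 (0.760), SLC10A4 (0.747) and FLT4 (0.729), with r of 0.812, 0.644 and 0.792 without the pons. MAOA was followed by ARHGAP18 (0.940), the astrocyte water channel gene AQP4 (0.938) and ANKFN1 (0.927), with r of 0.936, 0.937 and 0.926 without the pons. MAOB was followed by MAOA (0.852), VWA5A (0.827) and ANKFN1 (0.819).

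In sheep sperm, 5 of the 10 genes fell against the mean of the 10 brain regions and 2 were called higher, where 74.2% of all genes were called, 33.1% higher and 41.1% lower. No read of DDC, DBH or SLC6A3 was counted in the 5 sperm libraries. In CPM from plain totals, with a floor of 3 counts over the group, their means lay at least 156-fold, 107-fold and 44.5-fold below those of the brain. Bounds with scaling factors were not computed. MAOB had 4 counts in all, all in sheep 688, and MAOA 35 counts, with log2 fold changes of -8.24 ± 0.44 (edgeR adjusted p = 2.86e-23) and -6.12 ± 0.50 (edgeR adjusted p = 4.74e-16). The members' median was -3.70, against -0.42 for all genes. It was -3.37 with the 3 genes at 0 set to their bound, a value that mixes bounds from plain totals with scaled fold changes. Limma voom with quality weights called only MAOA and MAOB.

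The calls of TPH2 (log2 fold change 1.46 ± 0.50, edgeR adjusted p = 0.00651) and SLC6A2 (2.94 ± 0.79, edgeR adjusted p = 6.96e-04) as higher in sheep sperm depended on the scaling, since with plain library totals TPH2 was -1.07 (adjusted p = 0.0857) and SLC6A2 0.54 (adjusted p = 0.533). The median of all genes moved from -0.42 to -2.84 with plain totals, 0.31 with upper quartile factors and 1.05 in DESeq2, and the share of called genes that were higher from 44.6% to 17.7%, 56.1% and 55%. In CPM, TPH2 was 0.184, 0.0407, 0.657, 0.745 and 1.54 in the sperm of sheep 687, 688, 690, 694 and 699, lower than the animal's own brain mean in 5 of 5, and SLC6A2 was 0.123, 0, 0.730, 0.575 and 0 CPM, lower in 3 of 5. Without sheep 699 TPH2 was 0.50 and no longer called. TH (0.0154, 0, 0, 0 and 0.211 CPM) and SLC6A4 (3 counts; brain mean 21.3-fold higher, 95% Poisson interval 7.28 to 103, counting error only) were not called. SLC18A2 was counted in sheep 688 alone, at 0.671 CPM; its log2 fold change was 0.46 ± 0.50, and -1.86 with plain totals. Without that library sperm has 0 counts, so the fitted value (-7.82) depends on the prior count. Plain totals also called SLC6A4 lower (-3.58).

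The sheep sperm libraries were mixed. Late spermatid and sperm genes (7 of 7 detected) summed to 55.8 to 1410 CPM in them, and leukocyte genes (3 of 4 detected) to 1565 to 39659 CPM, against at most 28.3 CPM in any brain library. Neuron markers summed to 0.610 to 22.1 CPM. The part of these cells in the member levels was not tested.

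In rat sperm, Ddc was the only member that rose. It ranged from 7.36 to 127 CPM with a median of 61.3 CPM, a mean of 60.6 ± 38.9 CPM (SD, n = 15) against 13.7 ± 8.87 CPM (SD, n = 15) in male brain, and was above the rat's own brain in 12 of 15. Its log2 fold change was 2.5 ± 0.37 (edgeR adjusted p = 4.24e-07). Because Ddc overlaps Fignl1 and a non-coding RNA on this build, the source of these reads within the locus was not resolved. The libraries were also mixed, with late spermatid and sperm genes summing to 211 to 21835 CPM. Ddc was 15.5 and 38.0 CPM in rats 14 and 7, which had the highest sums. It was 120 CPM in rat 3, the next highest, and 77.3 CPM in rat 11, the lowest. Which cells carried Ddc was not tested, so its level is that of the sample and not of sperm cells.

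A further 5 members fell in rat sperm, so that 6 of the 9 tested were called, where 59.1% of all genes were called, 27.7% higher and 31.5% lower. Th had a median of 0.0318 CPM and a maximum of 0.394 CPM in sperm, against 8.46 CPM (3.11 to 58.7) in male brain. It fell by 7.06 ± 0.67 on the log2 scale (adjusted p = 4.19e-11 in edgeR). Dbh fell by 6.38 ± 0.70, with 12 of 15 sperm libraries at 0 counts. Slc6a3 had a single count in 15 libraries, so that the male brain mean was 2752-fold higher with a 95% Poisson interval of 494 to 108698 for counting error alone. Maob fell by 7.23 ± 0.45, from a median of 71.4 to 0.229 CPM, and Slc18a2 by 1.39 ± 0.20, from 20.8 to 5.51 CPM (edgeR adjusted p = 3.18e-07).

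Maoa lay at a median of 15.0 CPM in rat sperm (6.88 to 31.1) and 41.6 CPM in male brain. Its difference of -0.98 ± 0.15 (log2; edgeR adjusted p = 8.80e-07) just missed the fold limit. Of 9 alternatives 7 called it lower, from -1.01 to -1.33, among them the animal as a block (-1.06, adjusted p = 1.03e-05), RLE factors (-1.26) and DESeq2 (-1.26), while upper quartile factors and limma voom left it under the fold limit. By the ratio of means, Maob was 194-fold and Maoa 2.51-fold lower in sperm. Slc6a2 was removed by the low-count filter, with a mean of 0.0497 CPM against 1.89 CPM, lower than the own brain in 15 of 15 rats. With no filter it was called lower by edgeR (-4.75 ± 0.78, adjusted p = 3.37e-06), as with DESeq2 (-4.87 ± 0.68, adjusted p = 3.07e-12). Slc6a4 did not differ beyond its error (0.24 ± 0.64, edgeR adjusted p = 0.738), with a median of 1.76 CPM in sperm and a maximum of 20.7 CPM in rat 15.

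Tph2 in rat sperm was uneven. Its median was 0.0933 CPM and 6 libraries had 0 counts, but rats 7, 14 and 3 had 15.2, 9.99 and 3.27 CPM. The log2 fold change was -1.87 ± 0.93 (edgeR adjusted p = 0.0669); with the animal as a block it was -5.58 (adjusted p = 8.67e-04), with limma voom -6.68 (adjusted p = 1.60e-06) and with plain totals -2.10 (adjusted p = 0.0459). The same 3 rats had the highest sums of late spermatid and sperm genes, 20844, 21835 and 8105 CPM, against 211 to 4613 CPM in the other 12; their part in the Tph2 levels was not tested. The rat Tph2 locus overlaps a pseudogene.

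**Figure D4:**
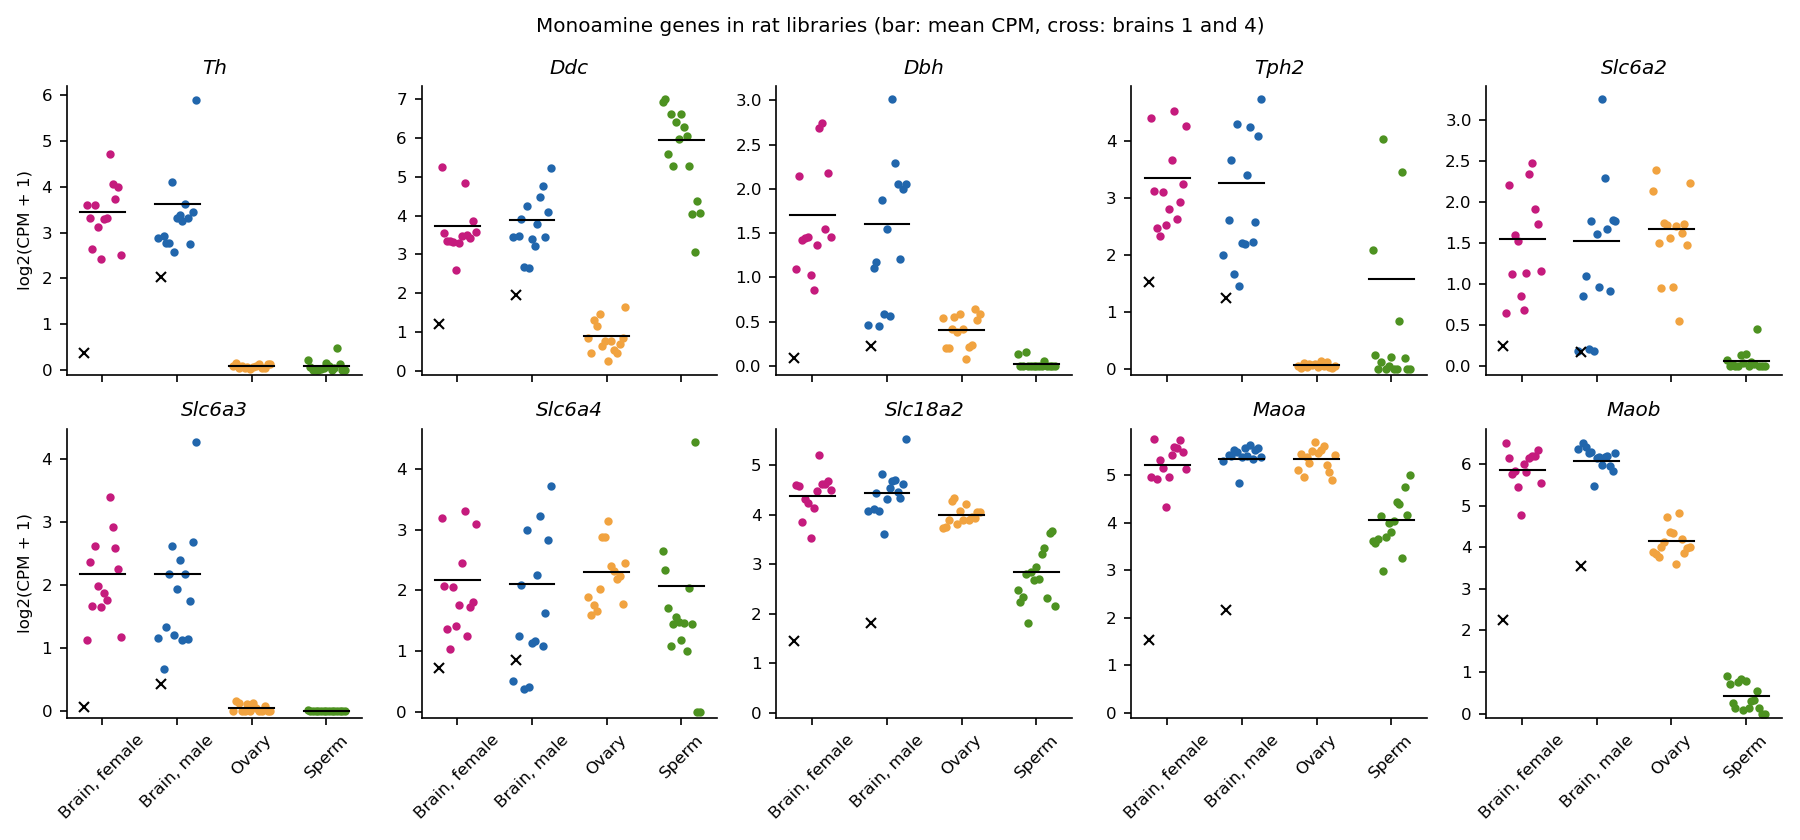
Levels of the 10 monoamine genes in rat female brain, male brain, ovary and sperm; each point is 1 library, the vertical axis is log2(CPM + 1), bars are group means and crosses mark the brains 1 and 4. Ddc is highest in sperm, Th, Dbh, Slc6a3 and Maob are lower in both ovary and sperm than in brain, Tph2 is lower in ovary and uneven in sperm, and Maoa and Slc18a2 are present in all 4 groups.

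In the rat ovary, 6 of the 10 members fell against female brain and 0 rose, where 56.9% of all genes were called and 29.2% called lower. These were the enzymes Th (mean 0.0614 against 9.96 CPM), Ddc (0.869 against 12.3 CPM), Dbh (0.327 against 2.25 CPM) and Tph2 (0.0454 against 9.18 CPM), the dopamine transporter gene Slc6a3 (0.0348 against 3.52 CPM) and Maob (16.8 against 57.2 CPM). Their log2 fold changes were -7.46 ± 0.26, -4.13 ± 0.31, -2.97 ± 0.30, -8.02 ± 0.38, -6.75 ± 0.49 and -2.03 ± 0.12 (edgeR adjusted p from 6.67e-22 for Th to 1.22e-10 for Dbh), and all 6 stayed called under every alternative run. The ovary lay below the rat's own brain in 14 of 14 animals for Th, Ddc, Tph2 and Slc6a3 and in 13 of 14 for Dbh and Maob, the exception in both being rat 1, whose brain library was named above.

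The other genes of uptake, storage and breakdown were found in every ovary and were not called. Slc6a2 was 2.18 ± 1.05 CPM in ovary and 1.93 ± 1.38 CPM in brain (SD, n = 14 each here), differing by -0.07 ± 0.29 (edgeR adjusted p = 0.829). Slc6a4 was 3.95 ± 1.78 and 3.49 ± 2.75 CPM (-0.22 ± 0.30, edgeR adjusted p = 0.485), and Maoa 39.7 ± 6.80 and 36.0 ± 13.8 CPM (-0.11 ± 0.09, edgeR adjusted p = 0.234). In these 3 genes the CPM means were higher and the TMM-scaled fold changes lower in the ovary, so no direction is given. Slc18a2, at 15.0 ± 2.14 and 19.7 ± 7.82 CPM, was lower by 0.69 ± 0.08 on the log2 scale (edgeR adjusted p = 1.38e-09), less than the fold limit.

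Of the other pathway genes, 6 of 14 cofactor and accessory enzymes rose in rat sperm and 5 fell; PNMT, which makes adrenaline (7.73 ± 0.71), and CYB561 (5.19 ± 0.21) rose most, and HNMT (-8.41 ± 0.64) and TPH1, the tryptophan hydroxylase of peripheral tissues and pineal (-7.75 ± 1.44), fell most. PNMT averaged 88.7 CPM in sperm against 0.503 CPM in brain. Of all genes, 27.7% were called higher and 31.5% lower in rat sperm, 59.1% in either direction. Of 6 other transporters SLC7A5 rose (1.82 ± 0.31) and 4 fell, led by the second vesicular transporter SLC18A1 (-5.66 ± 0.50). Among receptors, 2 of 3 dopamine receptors tested fell and 0 rose, 7 of 8 adrenergic fell and 1 rose, and 11 of 12 serotonin receptors fell and 1 rose. Of 8 transcription factors GATA3 (8.24 ± 0.34) and GATA2 (4.57 ± 0.19) rose and 6 fell. In the ovary 56.9% of all genes were called and 29.2% called lower. There, 1 of 13 cofactor enzymes rose and 6 fell, near the share of all genes, and 3 of 3 dopamine receptors fell. Of 9 adrenergic receptors 2 rose (ADRB3 4.73 ± 0.54 most) and 6 fell, and of 12 serotonin receptors 1 rose and 11 fell. In sheep sperm, where 33.1% of all genes were called higher and 41.1% lower, 4 of 14 cofactor and accessory enzymes were called higher and 7 lower. The higher were PNMT (5.10), GCH1 (2.46), GCHFR (1.95) and HDC (1.69), and among the lower were SPR (-5.71), PTS (-4.31), QDPR (-3.25) and PCBD1 (-3.13).

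Female and male rat brains did not differ in any member by edgeR, where 0.0583% of all genes were called. The log2 fold changes, female over male, ran from -0.13 ± 0.30 for Th to 0.45 ± 0.37 for Tph2, 0 of the 10 had an unadjusted p below 0.05, the lowest being 0.143 for Slc18a2, and none was called by any alternative, DESeq2 and limma voom included. The levels varied widely within each sex instead. Th ran from 0.294 to 25.4 CPM in females and from 3.11 to 58.7 CPM in males, and Tph2 from 1.87 to 22.0 CPM and from 1.35 to 25.4 CPM. Each of these lowest values came from brain 1 or brain 4, where ribosomal-like entries took most counts. Without those brains the lowest Th was 4.35 CPM in females and 4.94 CPM in males. The lowest Tph2 was then 4.00 and 1.74 CPM. The male brain 17 was highest of all for Th (58.7 CPM), Slc6a3 (18.3 CPM) and Tph2 (25.4 CPM).

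Across the 29 whole rat brains, the enzyme and the uptake transporter of the same transmitter varied together, as did most other pairs of members in plain CPM. Tph2 and Slc6a4, the serotonin enzyme and transporter, had Pearson's r = 0.975 and Spearman's rho = 0.973 in log2(CPM + 1) (each with a permutation p of 1e-05, the smallest that 100000 resamples can give, and adjusted p = 2.333e-05 and 4e-05 over 28 pairs). Leaving out the 2 brains farthest from the median of Tph2 gave r = 0.969, leaving out brains 1 and 4 r = 0.986, and TMM-scaled CPM r = 0.983. Within females without brain 1 the value was r = 0.987, and within males without brain 4 r = 0.985. Th and Slc6a3, the dopamine pair, had r = 0.852 and rho = 0.766 (permutation p = 1e-05 for both, adjusted p = 2.333e-05 and 4e-05), with r = 0.760 without the 2 extremes, 0.816 without brains 1 and 4, 0.777 within females without brain 1 and 0.841 within males without brain 4.

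Dbh and Slc6a2, the noradrenaline pair, were below 1 CPM in 24.14% and 37.93% of brains and were left out of the main set of pairs; without brains 1 and 4 and with no filter on low values they had r = 0.949 and rho = 0.953 (permutation p = 1e-05 for both). Th and Slc18a2 had r = 0.858, and Tph2 with Slc6a3 r = 0.501 (permutation p = 0.00515, adjusted p = 0.00627), which fell to 0.364 (adjusted p = 0.0807) without brains 1 and 4. Of the 28 pairs, 26 had an adjusted permutation p below 0.05 by Pearson and 21 by Spearman, all of the 26 positive. The median r of the 28 pairs was 0.697, and 0.294 with TMM-scaled CPM. Pairs of genes outside the members were not examined, so these counts have no background. Without brains 1 and 4 these were 16 pairs by Pearson, and with TMM-scaled CPM 12. Maoa with Maob, at r = 0.945 over all brains, was 0.657 without brains 1 and 4 and 0.275 with a further 2 extremes left out, so that relation rested on a few libraries. Depth, dissection and cell makeup are shared by all genes of a library, and their part in these relations was not tested.

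**Figure D5:**
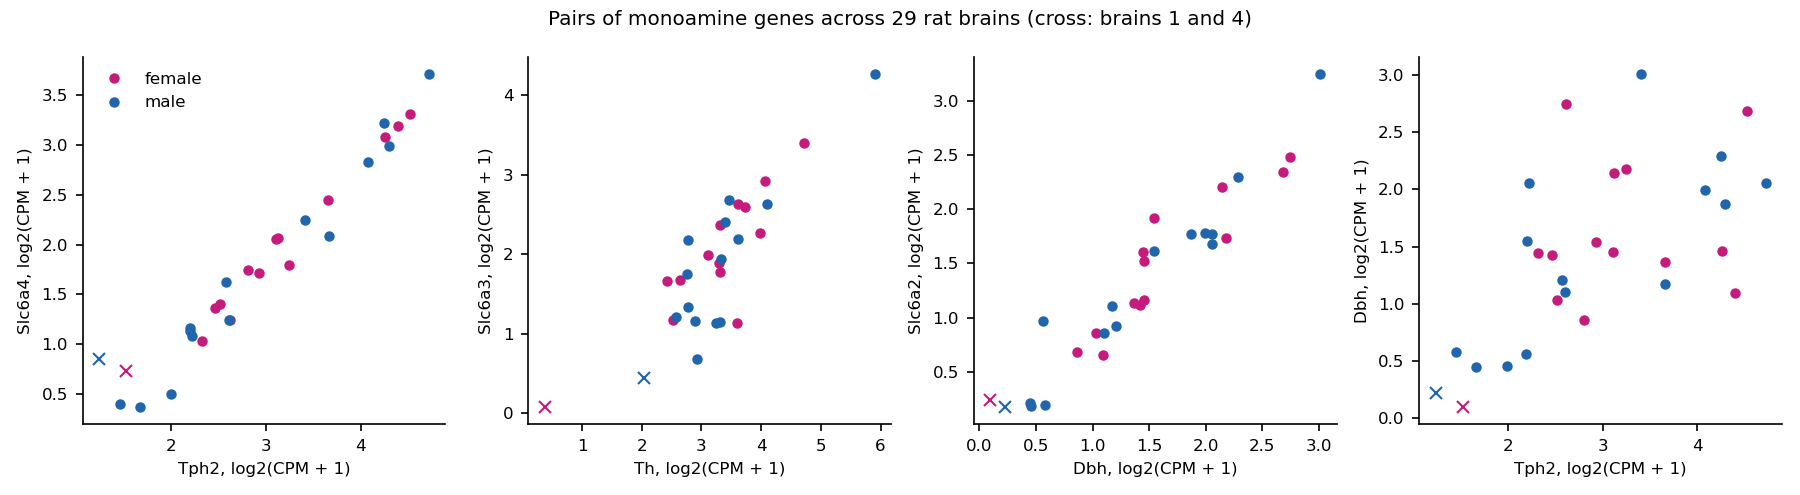
Levels in each of the 29 rat brains, log2(CPM + 1) on both axes, for the pairs Tph2 with Slc6a4, Th with Slc6a3, Dbh with Slc6a2 and Tph2 with Dbh. The first 3 pairs, enzyme and transporter of 1 transmitter, lie near a line, and Tph2 with Dbh, from different transmitters, scatters more (r = 0.622, and 0.526 without brains 1 and 4).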

How the data were processed

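Gene counts were deposited by the authors in 5 sheep tables, 1 per animal, and 3 rat tables, 1 each for brain, ovary and sperm, which per the submitters' processing notes came from Trimmomatic 0.39, STAR 2.7.5a and Rsubread 2.20.0 on the builds ARS-UI_Ramb_v3.0 (sheep) and GRCr8 (rat). The sources used here give no strand or multi-mapping settings, and the library kits differed between the species (per the labels' protocols), so sheep and rat levels were not compared.

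CPM were computed from plain library totals. Differences were tested with edgeR 4.0.16 (quasi-likelihood, TMM factors, filterByExpr, R 4.3.3) over all genes of each comparison, with Benjamini-Hochberg adjustment; a call needs an adjusted p below 0.05 and a log2 fold change of at least 1, and standard errors were taken from the fold change and its F value. Such errors are approximate and can fail for genes with few counts. For TH they came to 52.01 in the entorhinal cortex and 0.15 in the posterior parietal cortex. Sheep sperm were compared with the 10 brain regions, each region with the other 9, rat sperm and ovary with brain of the same sex, and female with male brain. Fits were checked on simulated counts, drawn without shared animals. In the sheep pons comparison 98% of genes changed by 2 on the log2 scale were called, and in rat sperm 86%. At a true change of 1, the fold limit, 46% were called in the pons comparison. In the other comparisons checked this ran from 34.3% (rat sperm) to 48% (rat ovary), so a gene not called may still differ. Alternatives were other scaling factors, no low-count filter, no fold limit, limma 3.58.1 (voom), DESeq2 1.42.0, the animal as a block, and leaving out animals or libraries. Two-sided permutation tests of correlations used 100000 resamples in SciPy 1.17.1. With 5 sheep per region, replicates are animals. Libraries of 1 sheep share an animal: over 45 pairs of regions the mean correlation of same-animal deviations had a median of 0.178 (-0.0972 to 0.480).

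All 10 members were named in every comparison, with up to 4 called genes per pathway list by size of change, at 1 CPM or more in the higher group, and the 3 genes most alike, of which 1 is not reported here. The members and lists were chosen with earlier results of these data known.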

Additional observations from a re-analysis of the deposited data

Results flagged for a closer look

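Among 106 sets of 5 sheep values (1 gene in 1 tissue), 11 had a highest library whose gap to the next exceeded 0.71 of the whole range. That limit flags about 1 in 20 sets of normally distributed values. CPM, some from a few counts, need not be normal, so this rate is no background for the 11. In the pons this was SLC6A3 in sheep 699, at 19.8 CPM against 0.0852 to 0.727 CPM. TPH2 in sheep 694 stood apart in the basal ganglia (13.0 CPM against 2.05 to 5.01 CPM), the frontal cortex (3.39 CPM against 0.302 to 0.731 CPM) and the prefrontal cortex (1.84 CPM against 0.176 to 0.360 CPM). The same animal had the highest SLC18A2 in the entorhinal cortex, at 1.29 CPM against 0.421 to 0.643 CPM. SLC6A2 in the frontal cortex of sheep 699 was 1.63 CPM against 0.0671 to 0.216 CPM. MAOA in the motor cortex library of sheep 687, which went against its label, was 187 CPM against 35.4 to 56.5 CPM. In sperm, TH was 0.211 CPM in sheep 699 (others at most 0.0154 CPM) and MAOA 0.779 CPM in sheep 694 (others at most 0.107 CPM). SLC18A2 (0.671 CPM) and MAOB (0.0814 CPM) were counted in the sperm of sheep 688 alone. The cause of these single high libraries was not tested.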

How the results depend on the processing

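In the basal ganglia 1 member stayed called with no low-count filter, limma voom, DESeq2 or the replicate block, and 1 to 2 when single sheep were left out. In the hippocampus 1 was called with upper quartile factors, with limma voom and without the 2 libraries that went against their labels, 2 with no fold limit, and 0 to 1 without single sheep. The entorhinal count was 1 without those 2 libraries, the posterior parietal count 1 with DESeq2, and the prefrontal count 0 to 1 without single sheep. Limma voom called 5 members in the pons against the basal ganglia and 2 in sheep sperm. In sheep sperm TPH2 turned to -1.07 with plain totals, and SLC18A2 to -1.86 with plain totals and -1.71 with limma voom; without single sheep SLC18A2 ran from -7.82 (0 sperm counts, so set by the prior count) to 0.82. In rat sperm 6 to 8 members were called under the alternatives, against 6. The replicate block changed 3 of the 57 fold changes followed (basal ganglia TH, rat sperm Tph2 and Maoa) and no other call. Of 28 rat brain pairs, 12 passed with TMM-scaled CPM, 16 without brains 1 and 4, 12 with both changes, and 14 within each sex without its doubtful brain; with no filter on low values it was 43 of 45. The causes were not tested. The exclusions of single doubtful libraries, the plain totals and the correlations without brains 1 and 4 were chosen after seeing the data. The share of called genes that were higher moved from 85.5% to 68.6% in the frontal cortex with limma voom, and with DESeq2 from 71.3% to 55.5% in the prefrontal, 82.9% to 70% in the posterior parietal and 88.2% to 73.1% in the visual cortex; in rat sperm it was 46.8%, and 58.8% with no low-count filter. Counts of a few reads limit SLC6A2, SLC6A3 and SLC6A4 outside the pons.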
